A study of Mus musculus with 8 samples.

Results

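Fibro-adipogenic progenitors are the Pdgfra-expressing mesenchymal cells that lie between the fibres of skeletal muscle, and 10 genes used as their markers were followed here through libraries of sorted muscle stem cells. The genes were Pdgfra, Hic1, Cxcl14, Pi16, Dpp4, Cd248, Clec3b, Mfap5, Gsn and Ly6a, taken by symbol from the deposited expression table. All 10 were among its 31723 genes, and all 10 were among the 14822 genes that were tested, those that averaged 10 or more normalized counts. The RNA came from muscle stem cells freshly sorted from hindlimb muscle of wild-type C57BL/6 mice, with 4 libraries of animals aged 3 months (young) and 4 of animals aged 20 months (old). The labels cite a published isolation procedure without listing its gates. They do not say whether a library came from 1 animal or a pool, so a p-value measures only the spread between these samples. Between 19040274 and 34679757 reads were assigned to genes in a library.

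As background, fibro-adipogenic progenitors support muscle stem cells during repair through secreted factors and matrix, and they can form adipocytes and fibroblasts when repair fails. Single-cell studies of muscle divide them into a Pi16- and Dpp4-expressing population, which resembles progenitor fibroblasts of many organs, and a Cxcl14-expressing population. Sca-1, the surface protein encoded by Ly6a, marks these cells and also endothelial cells, and it is commonly used as a negative gate when muscle stem cells are sorted. In bulk RNA, fewer cells of a type and less RNA per cell cannot be told apart, which holds for every value given here.

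The regions upstream of 3 of the markers are shown, those of Cxcl14 and Hic1 because these genes passed the test between ages, and that of Pdgfra because it defines the cells. Each is the 250 bases before a start site, from RefSeq on GRCm38.p6, written 5′ to 3′ on the strand of the gene. Capitals mark matches, on either strand, to the CCAAT box, to the TATA box letters TATAAA, to the GC box GGGCGG, to the AP-1 motif TGANTCA and to the TEAD motif CATTCC. None of the 3 windows overlaps an exon annotated in GENCODE M21.
Cxcl14, chr13:56296552-56296801, minus strand: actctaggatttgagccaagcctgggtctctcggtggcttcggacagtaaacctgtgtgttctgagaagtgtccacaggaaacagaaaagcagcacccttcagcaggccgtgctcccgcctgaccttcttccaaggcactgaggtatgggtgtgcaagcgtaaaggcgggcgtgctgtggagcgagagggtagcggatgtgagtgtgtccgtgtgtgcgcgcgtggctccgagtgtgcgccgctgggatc
Hic1, chr11:75170256-75170505, minus strand: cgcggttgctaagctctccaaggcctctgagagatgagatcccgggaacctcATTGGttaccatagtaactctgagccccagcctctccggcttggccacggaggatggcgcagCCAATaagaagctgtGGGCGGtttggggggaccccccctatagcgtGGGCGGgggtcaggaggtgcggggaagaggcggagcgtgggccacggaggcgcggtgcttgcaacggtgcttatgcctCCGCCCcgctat
Pdgfra, chr5:75152001-75152250, plus strand: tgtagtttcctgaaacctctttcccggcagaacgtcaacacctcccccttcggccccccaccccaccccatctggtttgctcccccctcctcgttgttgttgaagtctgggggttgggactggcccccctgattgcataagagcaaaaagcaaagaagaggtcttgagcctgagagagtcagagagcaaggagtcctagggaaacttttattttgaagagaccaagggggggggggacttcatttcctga
Of the 10 markers 6 had an entry among the RefSeq start sites used. The Hic1 sequence, which lies before the more upstream of 2 listed starts, held 2 matches to CCAAT and 3 to GGGCGG. The windows of Cxcl14 and Pdgfra held none of the 5 motifs, which says only that these letters are not in these windows. Among all 32851 windows of this length 33.8% held CCAAT, 32.7% GGGCGG, 12.6% CATTCC, 12.4% TATAAA and 6.75% TGANTCA, and no motif overlapped another in the 3 sequences shown. CpG dinucleotides numbered 18 in the Hic1 window and 16 in that of Cxcl14, against 4 in that of Pdgfra, beside a median of 6 over all windows.

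The comparison asked whether the markers differed between libraries of young and old mice. Cxcl14 and Hic1 rose in old libraries, and they were the only 2 of the 10 markers that passed the test (limma on log2 normalized counts, Benjamini-Hochberg adjusted p under 0.05 over all tested genes). Over all tested genes 3.34% were called higher in old libraries and 1.88% lower. At an unadjusted p under 0.05, 9 of the 10 were higher, beside 12.7% of tested genes, and 0 were lower. None of the 10 markers was called lower by limma, edgeR or DESeq2. The log2 fold change (old over young, computed after adding 1 to each normalized count, so that changes of low genes are understated) was above 0 for all 10 markers and at least 1 for 8 of them, shares that were 56.5% and 5.49% over all tested genes. The median over the markers was 1.62 and that over all tested genes 0.045. The markers were chosen with earlier results of these data known, and most of them moved together between libraries. The shares beside all tested genes therefore describe the markers and are not a test of them as a set. Apart from Ly6a, the 7 markers that did not pass had estimates between 0.97 and 2.27 with adjusted p between 0.0559 and 0.24, and in each of them at least 1 old library lay within the range of the young ones. DESeq2 on reads recovered from the normalized counts called 5 of the 10 higher (Cxcl14, Hic1, Clec3b, Gsn and Mfap5), beside 5.18% of all genes higher and 4.06% lower. The test of edgeR called Cxcl14 and Hic1, beside 2.76% of all genes higher and 2.01% lower. The limma count of 2 was 8 without old library 3 (3.29% of all genes higher), 5 without young library 2 (3.07%) and 7 without library 3 of both ages (3.6%). It stayed at 2 without any other single library.

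**Figure D1:**
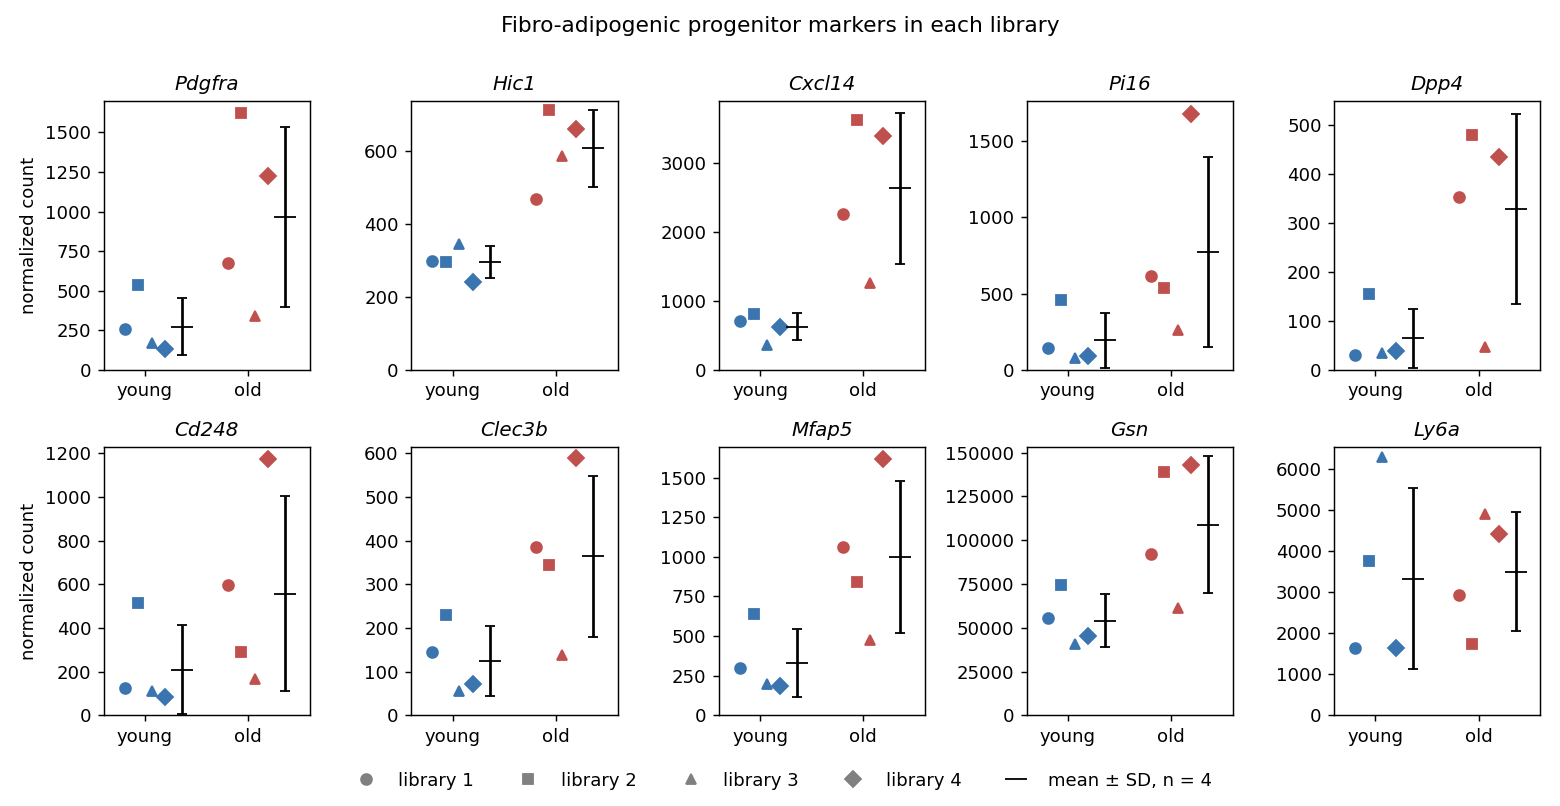
Normalized counts (y axis, linear, from 0) of the 10 markers in each library of young (blue) and old (red) mice. The black line and bar give the mean and SD of the 4 libraries of an age, and the shape gives the library number. In the panels of Cxcl14 and Hic1 every old library lies above every young one, while in the other 8 panels the ages overlap.

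Pdgfra encodes the alpha receptor for platelet-derived growth factors and is the gene by which these progenitors are usually defined. Its normalized counts were 261, 533, 168 and 129 in young libraries 1 to 4 and 674, 1621, 338 and 1224 in old libraries 1 to 4. Old libraries 1, 2 and 4 exceeded every young library, whereas old library 3 lay below young library 2. The means were 273 ± 182 (SD, n = 4) in young and 964 ± 570.2 (SD, n = 4) in old, a log2 fold change of 1.80 ± 0.52 (SE) that did not pass the test (limma adjusted p = 0.0769). The gene passed without old library 3 (2.23, limma adjusted p = 0.0259) and without young library 2 (2.20, limma adjusted p = 0.0415). Pdgfra did not pass without any other single library, and without old library 4 it was at 1.61 (limma adjusted p = 0.194). Annotated antisense genes overlap Pdgfra, Pi16 and Dpp4 over at most 4.55% of their exon bases, and the labels do not say whether reads were counted by strand.

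Hic1, a zinc finger transcriptional repressor linked to quiescence of mesenchymal progenitors in muscle, varied least within an age. It had 298, 295, 346 and 239.6 normalized counts in young libraries 1 to 4 and 468, 713, 587 and 659 in old libraries 1 to 4. The highest library was 1.45 times the lowest in young and 1.52 times in old, and the ages did not overlap, as was so in this direction for 7.99% of all tested genes. Hic1 rose from 295 ± 43.6 to 607 ± 106 (log2 fold change 1.03 ± 0.16, limma adjusted p = 0.00725). Without each library in turn it passed in every case, with limma adjusted p between 0.00799 and 0.0298.

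Cxcl14 encodes a secreted chemokine. Young libraries 1 to 4 had 710.5, 813, 359.7 and 621 normalized counts, and old libraries 1 to 4 had 2265, 3625, 1255 and 3387. The lowest old library, number 3, still exceeded the highest young one, number 2. The means of 626 ± 194 and 2633 ± 1094 gave a log2 fold change of 2.02 ± 0.34 (limma adjusted p = 0.0101), and the gene passed without each library in turn (adjusted p between 0.00281 and 0.0382).

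Pi16, Dpp4 and Cd248 are surface markers, the first pair of the progenitor population. Pi16, of the peptidase inhibitor family, had 144, 459.7, 77.6 and 93.4 normalized counts in young libraries 1 to 4 and 615, 537, 259.7 and 1681 in old libraries 1 to 4. Young library 2 exceeded old library 3, and old library 4 stood above all others. The change of 2.05 ± 0.62 did not pass (limma adjusted p = 0.0874), but it passed without young library 2 (2.59, adjusted p = 0.0299) and without old library 3 (2.46, adjusted p = 0.0477). Without any other single library it did not pass, and without old library 4 it was 1.57 (limma adjusted p = 0.203).

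Dpp4, a cell surface dipeptidyl peptidase, had 30.03, 154, 33.9 and 38.8 normalized counts in young libraries 1 to 4 and 353, 479.6, 47.2 and 434 in old libraries 1 to 4. Old library 3 was near young libraries 1, 3 and 4, while the other 3 old libraries exceeded every young one. Of the 10 estimates that of Dpp4 was the highest and had the widest error (2.27 ± 0.75, limma adjusted p = 0.113). Without old library 3 it passed at 3.05 (limma adjusted p = 0.0109). Without any other single library it did not pass, and without old library 4 it was at 1.99 (limma adjusted p = 0.261).

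Cd248, or endosialin, is a membrane glycoprotein of stromal cells and pericytes. It had 126, 514, 112 and 82.6 normalized counts in young libraries 1 to 4 and 595, 292, 169 and 1172 in old libraries 1 to 4. Young library 2 exceeded old libraries 2 and 3. The change of 1.45 ± 0.65 did not pass (limma adjusted p = 0.24), nor did it without any single library.

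Clec3b encodes tetranectin, a plasminogen-binding secreted protein, and Mfap5 a glycoprotein of elastic microfibrils. Clec3b had 145, 229.8, 55.0 and 71.1 normalized counts in young libraries 1 to 4 and 386, 343, 138 and 588 in old libraries 1 to 4, a change of 1.58 ± 0.51 (limma adjusted p = 0.104). Mfap5 had 301, 639, 197 and 184 in young and 1065, 838, 474 and 1621 in old, a change of 1.65 ± 0.43 (limma adjusted p = 0.0559). For both genes young library 2 exceeded old library 3 and no other old library. The ratio of Clec3b to Mfap5 normalized counts, a quantity chosen after the values were seen, lay between 0.280 and 0.481 in young and between 0.292 and 0.409 in old, while either gene alone varied at least 3.42-fold among the libraries of an age. Without old library 3 both passed (limma adjusted p = 0.0378 for Clec3b and 0.0265 for Mfap5), and without young library 2 Mfap5 passed (adjusted p = 0.0195) and Clec3b did not (adjusted p = 0.0589). Neither passed without any other single library. Without old library 4 the limma adjusted p was 0.251 for Clec3b and 0.147 for Mfap5.

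Gsn encodes gelsolin, an actin-severing protein made by many cell types besides fibroblasts. It had 55689.6, 74527, 40798 and 45538 normalized counts in young libraries 1 to 4 and 91978, 138698, 61532 and 143164 in old libraries 1 to 4. Old library 3 lay below young library 2, and the other old libraries lay above every young one. The change from 54138 ± 14945 to 108843 ± 39124 was 0.97 ± 0.28 on the log2 scale (limma adjusted p = 0.0748), and it passed without old library 3 (1.21, adjusted p = 0.0185). Without any other single library it did not pass, and without old library 4 it was 0.81 (limma adjusted p = 0.184). Between 84.2% and 93.9% of the reads of the 10 markers in a library were Gsn reads, so a sum over the 10 is close to a Gsn value. The sum over the 8 markers other than Gsn and Ly6a, chosen after the values were seen, was 96.7, 177, 64.4 and 70.6 CPM (reads scaled to a common library total) in young libraries 1 to 4 and 306, 387, 159.9 and 533 in old libraries 1 to 4. In this sum, too, old library 3 was below young library 2.

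Levels were compared between markers only per length, as normalized counts per kilobase of annotated exon (GENCODE M21, every isoform included). In young libraries Gsn had 17149 ± 4734, Ly6a 2766 ± 1838 and Cxcl14 343 ± 106 normalized counts per kilobase. Clec3b (126 ± 80.6), Mfap5 (92.0 ± 59.2), Cd248 (80.1 ± 78.4) and Hic1 (78.6 ± 11.6) followed, and neighbours in this order did not differ beyond their spread. Pi16 (30.4 ± 28.2), Pdgfra (27.2 ± 18.2) and Dpp4 (10.2 ± 9.48) were lowest, again with overlapping spreads. In old libraries the order was the same, from Gsn (34477 ± 12393), Ly6a (2906 ± 1201) and Cxcl14 (1441 ± 599) through Clec3b (367 ± 186) and Mfap5 (279 ± 134) to Pdgfra (96.2 ± 56.9) and Dpp4 (52.0 ± 30.8).

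**Figure D2:**
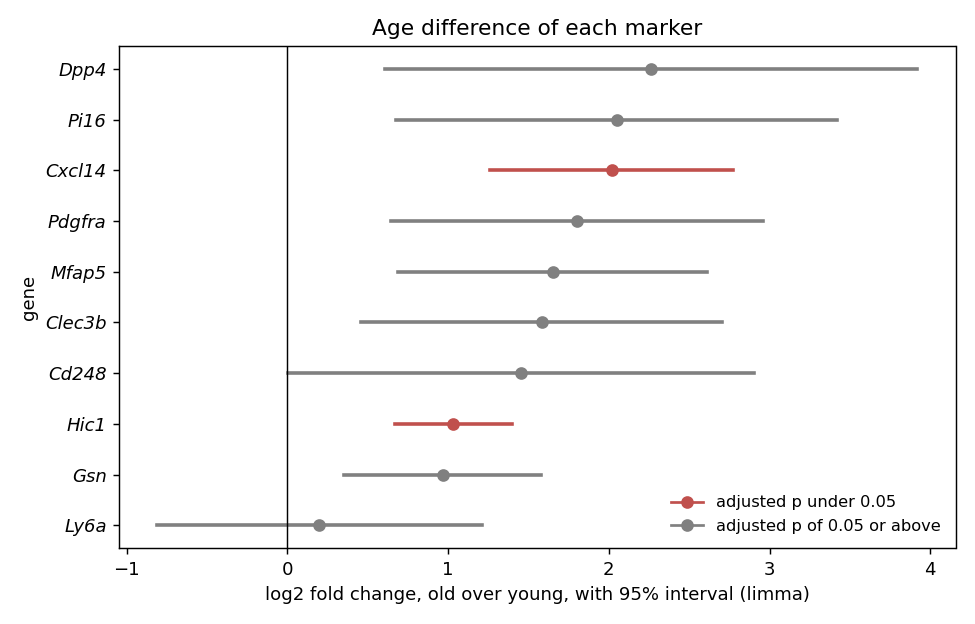
Log2 fold change of each marker (x axis, old over young, limma on log2(normalized count + 1)) as a point with its 95% interval as a line, red where the adjusted p was under 0.05 and grey otherwise. Cxcl14 (2.02) and Hic1 (1.03) are red, and the interval of Ly6a (-0.81 to 1.21) spans 0.

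Ly6a had a library order unlike that of the other 9. It had 1632, 3771, 6293 and 1639 normalized counts in young libraries 1 to 4 and 2946, 1729, 4916 and 4415 in old libraries 1 to 4. The ages overlapped, and the highest library of all was young library 3. Means of 3333 ± 2215 and 3501 ± 1447 gave a log2 fold change of 0.20 ± 0.45 (limma adjusted p = 0.857). Its 95% interval, from -0.81 to 1.21, holds falls as well as rises, so this spread does not settle a direction. The estimate was -0.063 without young library 1, -0.061 without young library 4 and 0.59 without young library 3.

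Ly6a was set beside marker lists of other cells, using log2 levels from which the mean of each age had been subtracted. On average over the 8 libraries Ly6a lay 0.25 from the mean of 12 endothelial markers and 0.85 from the mean of the other 9 progenitor markers. The other 9 progenitor markers each lay between 0.58 (Hic1) and 1.25 (Dpp4) from the endothelial mean. The 12 endothelial genes summed to 24668, 45775, 87850 and 24995 normalized counts in young libraries 1 to 4 and 34622, 27268, 72361 and 29777 in old libraries 1 to 4, and none was at 0 in any library. Library 3 of each age was the highest in this sum, as it was for Ly6a. The ratio of Ly6a to the endothelial gene Pecam1, chosen after the values were seen, was 0.574, 0.631, 0.626 and 0.568 in young and 0.739, 0.477, 0.534 and 1.35 in old. The young values lay close together, and old library 4 stood above the rest. Limma, edgeR and DESeq2 each called 0 of the 12 endothelial genes, and 0 had an unadjusted p under 0.05. With the mean log2 level of these genes as a covariate, an alternative added after the data were seen, Ly6a was at 0.26 (limma adjusted p = 0.507). With that covariate 7 of the 10 markers were called higher, beside 5.93% of all tested genes. The part of endothelial RNA in the Ly6a values was not tested further.

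**Figure D3:**
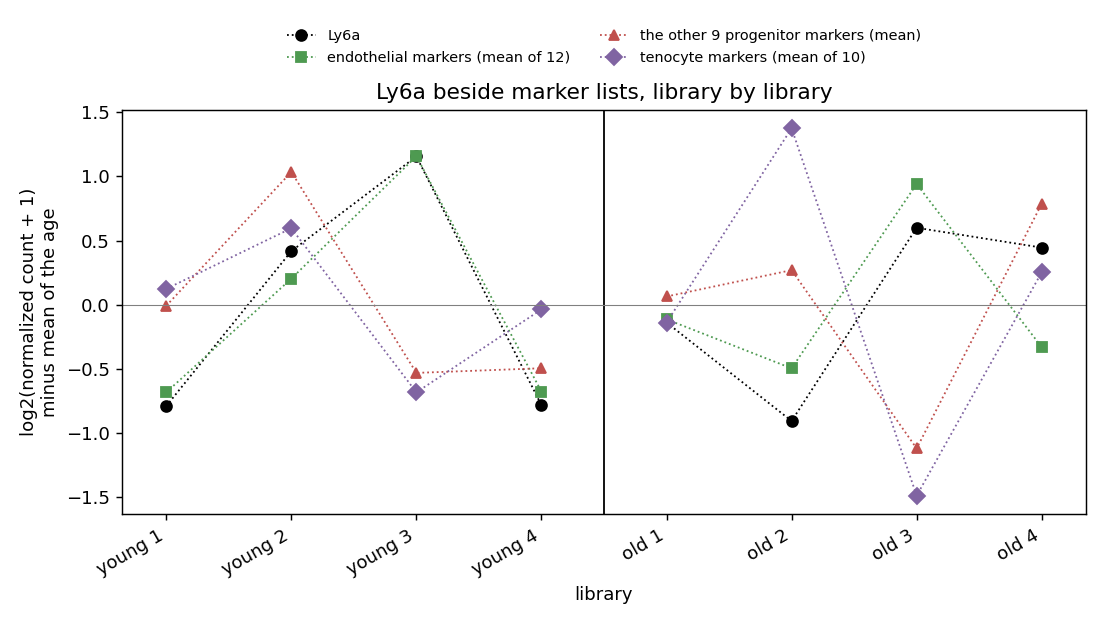
Log2(normalized count + 1) minus the mean of the age (y axis) in each library (x axis) for Ly6a and for the means of 12 endothelial markers, of the other 9 progenitor markers and of 10 tenocyte markers, with dotted lines only joining the libraries of an age. In library 3 of both ages Ly6a (1.16 and 0.60) and the endothelial mean (1.16 and 0.94) are above 0, while the mean of the other 9 progenitor markers (-0.53 and -1.12) is below it.

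Most of the other markers shared the highest young and the lowest old library. Young library 2 was the highest young library for 8 of the 10, all but Hic1 and Ly6a, beside 24.4% of all tested genes. Old library 3 was the lowest old library for the same 8 markers, beside 25.8% of tested genes. This order was not particular to the progenitor markers. The mean log2 levels of the tenocyte, mural, macrophage and glial lists were also highest in young library 2 and lowest in old library 3. Those of the endothelial and erythroid lists were neither. At the top of the old group the markers divided, with old library 2 highest for Pdgfra, Cxcl14, Hic1 and Dpp4 and old library 4 highest for Pi16, Clec3b, Gsn, Cd248 and Mfap5.

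The balance of the 2 described populations was followed as ratios of normalized counts, chosen after the values were seen. Pi16 to Pdgfra was 0.553, 0.863, 0.462 and 0.724 in young libraries 1 to 4 and 0.912, 0.331, 0.768 and 1.37 in old libraries 1 to 4. Old libraries 2 and 4 lay at opposite ends of the range, and the ages overlapped. Pi16 to Cxcl14 was 0.284 ± 0.190 in young and 0.281 ± 0.152 in old (SD, n = 4), a difference smaller than the spread between libraries.

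Likeness among the markers was measured as the mean absolute difference, over the 8 libraries, between the age-centred log2 level of a gene and the mean of the other 9. This distance was smallest for Mfap5 (0.16), Gsn (0.27) and Clec3b (0.27). Pdgfra (0.36), Cxcl14 (0.37) and Pi16 (0.39) followed, then Cd248 (0.51), Hic1 (0.55), Dpp4 (0.61) and Ly6a (0.85). The average deviation of a gene from the mean of its age ranged from 0.17 (Hic1) to 0.99 (Dpp4). Hic1 and Cxcl14 each lay on the same side of their age mean as the other 9 in 5 of 8 libraries, and Ly6a in 4. The distance of Hic1 was 0.24 from the mean of 14 muscle stem cell markers, 0.24 from that of the markers of the Cxcl14 population and 0.25 from that of the general fibroblast genes. Each of these exceeded 0.17, the distance of Hic1 from a profile without any variation. They therefore do not show which list Hic1 resembled. The distance depends on the size of deviations as well as on their direction. Dpp4 lay on the same side as the other 9 in 7 of 8 libraries despite its distance of 0.61.

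**Figure D4:**
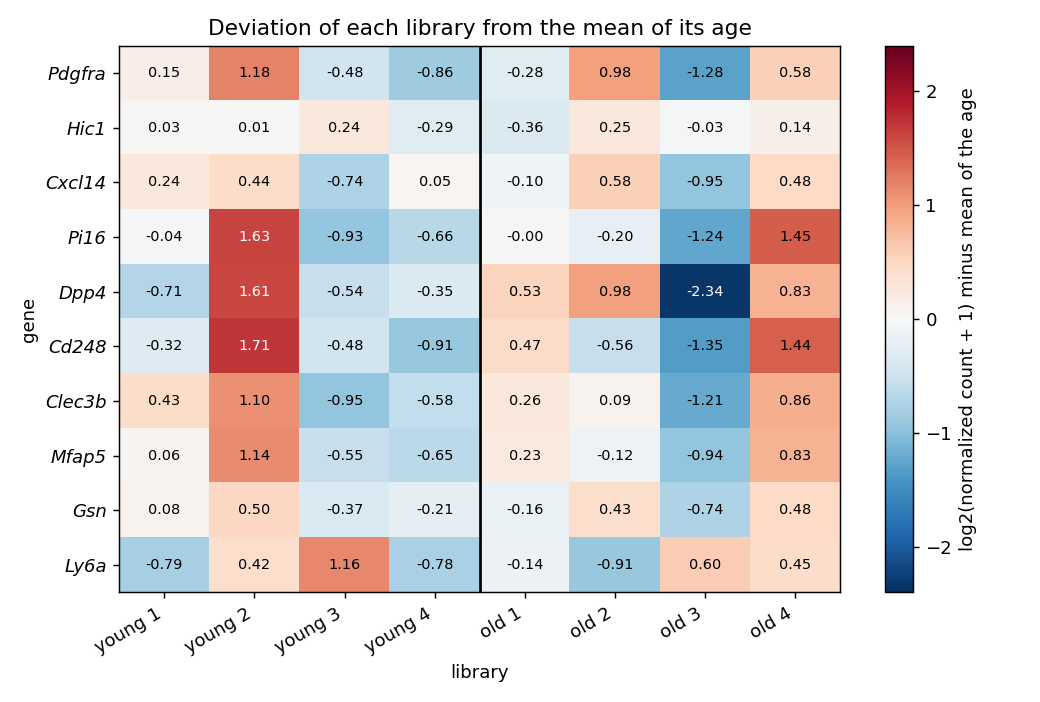
Log2(normalized count + 1) of each marker in each library minus the mean of its age, as colour and number. Young library 2 and old library 4 are above the mean of their age for all 10 markers, and old library 3 is below it for all but Ly6a.

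Among 11447 further genes averaging 50 or more normalized counts, the 10 nearest to the mean age-centred profile of the markers lay between 0.060 and 0.19 from it. They were picked as the smallest distances, so lying below the median of 0.51 was fixed by the choice. A profile without any variation lies 0.48 away. Susd2, a membrane protein gene and the nearest, had 136, 272, 100.2 and 111 normalized counts in young libraries 1 to 4 and 267, 306, 141 and 456 in old libraries 1 to 4. It was high in young library 2 and low in old library 3, as most markers were, and its change of 0.91 ± 0.39 did not pass (limma adjusted p = 0.21). Efemp1, which encodes the matrix protein fibulin-3, rose by 2.11 ± 0.43 (limma adjusted p = 0.0230). Cygb, encoding cytoglobin, and Pcolce, a gene of collagen processing, rose by 1.57 and 1.34 (limma adjusted p = 0.0261 and 0.0424). The interferon-inducible genes Ifi205 and Ifi211 rose by 2.85 and 2.30 (limma adjusted p = 0.00596 and 0.00718), with every old library above every young one. Spon2, Igfbp6 and Adamtsl5 had changes of at least 0.95 that did not pass, and Sypl2 had one of -0.45 (limma adjusted p between 0.0748 and 0.486). Of these 10 genes 4 were also on the lists of further markers that follow.

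Of 45 tested genes on 3 lists of further progenitor and fibroblast markers, 14 rose and 0 fell, beside 3.34% and 1.88% of all tested genes. An estimate above 0 was found for 31 of the 45, and the median was 0.58. These lists, and those of other cells, were also chosen with earlier results of these data known, so their counts are descriptions only. The count of 14 was 6 without young library 1 (1.67% of all genes higher), old library 1 (1.73%) or old library 2 (1.44%). It was 4 without young library 4 (1.66%) or old library 4 (1.55%), so calls over all genes became fewer as well. Of 15 markers linked to the Pi16 and Dpp4 population 2 rose, Efemp1 and the annexin gene Anxa3 (1.04 ± 0.26, limma adjusted p = 0.0479), with a list median of 0.50. Of 14 linked to the Cxcl14 population 5 rose, with a median of 0.89. Among them Lum, encoding the proteoglycan lumican, rose by 2.12 ± 0.33 (limma adjusted p = 0.00691), and the matricellular gene Smoc2 by 1.95 ± 0.35 (adjusted p = 0.0131). Crispld2 and the opioid precursor gene Penk rose by 1.45 and 2.04 (limma adjusted p = 0.0178 and 0.0201). The fifth was Apod, encoding apolipoprotein D and named after its value was seen (1.97). Of 16 general fibroblast genes 7 rose, with a median of 0.81. They included the proteoglycan genes Dcn (2.32 ± 0.39) and Bgn (1.03 ± 0.18, limma adjusted p = 0.0104 for both), Serpinf1 (1.85) and the transcription factor gene Osr1 (1.81). The fibrillar collagen genes Col1a1, Col1a2 and Col3a1, named after their values were seen, had changes of 0.39, 0.92 and -0.59 that did not pass. At an unadjusted p under 0.05, the list linked to the Pi16 and Dpp4 population held 5 genes higher and 1 lower. That linked to the Cxcl14 population held 8 higher and 2 lower. The general fibroblast list held 9 higher and 2 lower, Col3a1 among the lower.

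Genes of the pathway around Pdgfra did not pass the test. Of its ligand genes Pdgfa, Pdgfb, Pdgfc and Pdgfd, the second receptor gene Pdgfrb and the related Pdgfrl (of which Pdgfa and Pdgfd were named after their values were seen), limma, edgeR and DESeq2 each called 0 of 6, and 1 had an unadjusted p under 0.05. That gene was Pdgfrb, which pericytes also express (0.83 ± 0.35, limma adjusted p = 0.207). Of 9 tested adipogenic genes limma, edgeR and DESeq2 each called 0, and 1 had an unadjusted p under 0.05, Cfd, encoding adipsin (1.19, limma adjusted p = 0.174). Pparg, a regulator of adipocyte formation, was at 0.51 ± 0.41 (adjusted p = 0.534).

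Markers of other cells were present in the same libraries, and their part in the values of the progenitor markers was not tested. Tenocyte markers summed to between 4042 and 10874 normalized counts in young and between 13178 and 121352 in old, with young library 2 and old library 2 highest and library 3 lowest in each age. Of these 10 genes 5 rose, beside 3.34% of all tested genes, among them Thbs4 (3.05 ± 0.51, limma adjusted p = 0.00961). None of the 10 was at 0 in any library. Of the lists whose distance was measured, the tenocyte mean was the nearest to the profiles of Pdgfra (0.34) and Dpp4 (0.60). The mean of the other 9 progenitor markers was nearly as close (0.36 and 0.61), so these distances do not separate the 2 lists. Cd248 was nearest to the macrophage mean (0.45, beside 0.51 from the other 9). Cxcl14 was nearest to the list of its own population (0.23), with the tenocyte mean at 0.25 and the other 9 at 0.37. Pi16, Clec3b and Mfap5 were nearest to the other 9, and Gsn to the general fibroblast mean. Glial, myofibre, erythroid, and lymphocyte and neutrophil lists were not measured in this way. Macrophage markers summed to between 1134 and 2753 in young and between 1490 and 5458 in old. They were highest in young library 2 and old library 4, as Pi16, Clec3b, Gsn, Cd248 and Mfap5 were. Limma, edgeR and DESeq2 each called 0 of 11 macrophage genes, 1 had an unadjusted p under 0.05, and Itgam, not tested for its low counts and named after its values were seen, was at 0 in 1 library. Mural cell markers summed to between 11268 and 26270 in young and between 19193 and 24417 in old, and 1 of 10 rose, Abcc9 (1.02, limma adjusted p = 0.0259). Glial markers summed to between 3361 and 9944 in young and between 3392 and 8068 in old; limma and edgeR called 0 of 7, DESeq2 called 1, and 1 had an unadjusted p under 0.05. For 9 myofibre, 4 erythroid and 7 lymphocyte and neutrophil genes, limma, edgeR and DESeq2 called 0 and 0 had an unadjusted p under 0.05. Sums over the whole lists, with untested genes included (10 myofibre, 4 erythroid and 12 lymphocyte and neutrophil genes), lay between 6217 and 23782, between 1975 and 5885, and between 44.4 and 1141 normalized counts over the 8 libraries. Of the 12 lymphocyte and neutrophil genes 6 were at 0 in some library, 2 of them among the 7 tested. Estimates were above 0 for 10 of 10 tenocyte genes (median 2.05), 11 of 11 macrophage (0.62) and 8 of 10 mural genes (0.64). The same held for 6 of 7 glial (0.31), 8 of 9 myofibre (0.29) and 4 of 4 erythroid genes (0.34). For lymphocyte and neutrophil genes it was 2 of 7 (-0.54) and for endothelial genes 3 of 12 (-0.044), beside 56.5% of all tested genes.

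Of the labelled cell type 14 markers were followed, and all 14 were above 0 in every library. The same held for every gene of the endothelial, tenocyte, mural, glial and erythroid lists in the data, so it does not check the label. The 14 muscle stem cell markers summed to between 216156 and 274586 normalized counts in young and between 196493 and 221121 in old. None rose and 4 fell, Msc, Itga7, Calcr and Chrdl2, beside 1.88% of all tested genes called lower. DESeq2 called 5 lower and 0 higher, beside 4.06% of all genes lower. Estimates were above 0 for 3 of the 14, with a median of -0.22. At an unadjusted limma p under 0.05, 7 were lower and 1 was higher. Pax7, the transcription factor gene that defines the cells, did not pass (0.17 ± 0.15, limma adjusted p = 0.572). The ratio of Pdgfra to Pax7 normalized counts was 0.0907, 0.210, 0.0898 and 0.0518 in young libraries 1 to 4 and 0.264, 0.641, 0.139 and 0.351 in old libraries 1 to 4, and old library 3 again lay within the young range.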

How the data were processed

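The deposited table holds normalized counts, a signal that the authors made per gene and library. Trim Galore 0.4.2, STAR, Subread 1.5.1, featureCounts and DESeq2 are named, per the submitters' processing notes, which give builds GRCm39 and mm10 without their roles. Libraries were made from amplified cDNA, per the labels' protocols. Dividing by the value of 1 read in each library (0.60055 to 1.07328 normalized counts) gave whole numbers, within 0.01, for at least 99.984% of values. These reads gave the depths and entered edgeR 4.0.16 and DESeq2 1.42.0 as alternatives.

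The test was limma 3.58.1 in R 4.3.3 with an intensity trend on log2(normalized count + 1), two-sided, with age alone in the model, for genes with a mean of at least 10, adjusted by Benjamini-Hochberg over 14822 genes with a threshold of 0.05. The script was tested on simulated data. Alternatives were other pseudocounts (0.5 and 8), no filter or a minimum mean of 50, quantile normalization, equal totals, no trend, array weights, a replicate block, edgeR, DESeq2, leaving out libraries, and an endothelial covariate added after the data were seen. The members and lists were chosen with earlier results of these data known. Named genes were all members, at most 4 genes of smallest p per other list, Vcam1, Pecam1, Ptprc and Pax7, and the 10 nearest genes. Others are said to be named after their values were seen. Vcam1 was at 0.34 (limma adjusted p = 0.165) and Ptprc at 0.94 (limma adjusted p = 0.57).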

Additional observations from a re-analysis of the deposited data

Results flagged for a closer look

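Of 20 sets of 4 libraries (10 markers in each age), 2 held a library far from the other 3 by Dixon's test. Chance gives about 1 in 20 for independent sets, but these sets share libraries, and both flags fell on young library 2. The test used normalized counts, not the log2 levels of the comparison between ages. Dpp4 in young library 2 had 154 normalized counts, and the gap to the next library was 0.929 of the range of the young libraries, above the 95% critical value. Cd248 in the same library had 514 normalized counts, a gap of 0.901 of the range.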

How the results depend on the processing

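Cxcl14 and Hic1 were called higher under all 21 alternatives run, with log2 fold changes of 1.77 to 2.34 and 0.93 to 1.15. The count of markers higher in old, 2 of 10, was 5 with DESeq2, 7 with the endothelial covariate and 7 without young library 3 and old library 3, and it ranged from 2 to 8 when 1 library was left out, reaching 5 without young library 2 and 8 without old library 3. No alternative called a marker lower. The estimate of Ly6a reversed to -0.063 without young library 1 and to -0.061 without young library 4, and it was 0.59 without young library 3. The 14 further markers higher in old became 4 without the trend (1.81% of all tested genes higher). They ranged from 4 to 18 when 1 library was left out, with 1.44% to 3.53% of all tested genes higher. Further markers lower in old became 1 with DESeq2 and ranged from 0 to 1. Genes of other cell types called, 6 at first, became 1 without the trend, 10 without young library 3 and old library 3, and ranged from 1 to 10. The causes were not tested. With the replicate number as a block, 7 markers were called higher, beside 3.77% of all tested genes higher and 1.7% lower, and 10 genes of other cell types were called. Deviations of libraries with the same number correlated at 0.19, 0.07, 0.30 and -0.04 over genes, beside -0.16 to 0.14 for libraries of unlike number. The highest value was that of library 3 of both ages, but not every library correlated best with its own number. Whether libraries of the same number share more than the number was not tested. Reads behind a marker in a library were fewest for Dpp4, with 44 in old library 3.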
